A study of Mus musculus with 7 samples.

Results

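The 34 genes described here encode the enzymes of glycolysis, the main enzymes that build and break down glycogen, the glucose transporter Slc2a4 and the lactate transporters Slc16a1 and Slc16a3. They were chosen by gene symbol, as muscle and ubiquitous isoforms of these pathways, and all 34 were found among the 48820 gene identifiers of the count table. All 34 also passed the filter on low counts, which left 16764 genes. RNA-seq was done on whole tibialis anterior (TA) muscle of male mice aged 7 weeks, collected 3 days after injury with barium chloride (BaCl2), a salt that kills muscle fibres. The 4 Sirt7 scKO libraries came from Sirt7fl/fl; Pax7-CreERT2 mice, and the 3 Control libraries from WT; Pax7-CreERT2 mice. Both groups therefore carry the Pax7-CreERT2 allele, a drug-dependent recombinase made in Pax7-expressing cells, the stem cells of muscle, and both were injured. The recombinase acts in that lineage, whereas the RNA came from every cell type of the muscle. When the inducing drug was given is not stated in the sources used here.

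Glycolysis splits glucose into pyruvate, which lactate dehydrogenase can reduce to lactate, and glycogen is the glucose store that muscle opens during work. Several steps are run by different genes in different tissues: mature fibres use Pfkm, Pgam2, Eno3, Pygm, Phka1, Phkg1 and Slc2a4, while most other cells use relatives such as Pfkl, Pfkp, Pgam1, Eno1, Pygb and Pygl. A few days after BaCl2 the killed fibres are being cleared by infiltrating macrophages and new fibres are only starting to form, so whole injured muscle holds both kinds of transcript.

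A pair of isoforms shows why some of these counts are harder to read than others. Phosphoglycerate mutase is made by Pgam1 in most tissues and by Pgam2 in mature muscle. Pgam1 also has a processed copy, Pgam1-ps2, a DNA copy made from its spliced mRNA. The 80 coding bases around the junction of the first and second exon of Pgam1, 40 on each side (GRCm38, chr19:41912147-41912186 and chr19:41915605-41915644, plus strand, GENCODE release 21) are set beside the same stretch of the copy on chromosome 7 and of Pgam2 on chromosome 11. Capitals mark bases that differ from Pgam1.
Pgam1: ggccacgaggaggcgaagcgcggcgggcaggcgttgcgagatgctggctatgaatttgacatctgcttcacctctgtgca
Pgam1-ps2: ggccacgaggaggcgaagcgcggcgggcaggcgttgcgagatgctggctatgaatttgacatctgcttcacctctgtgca
Pgam2: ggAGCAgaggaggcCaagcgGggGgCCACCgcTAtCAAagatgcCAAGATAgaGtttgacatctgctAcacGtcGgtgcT
The copy held this stretch with 0 differences in 1 exon, against 4 exons in Pgam1, and it contained the whole coding sequence. Pgam2 differed at 29 of the 80 bases and was 74.7% identical to Pgam1 over 759 coding bases. Reads of the muscle isoform can be told from those of Pgam1 by sequence, and reads of Pgam1 mRNA cannot be told from those of its copy over this stretch.

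The region before the transcription start of 3 muscle-type genes and of Pgam1 is shown because the muscle-type genes varied together across libraries, as described below. The 250 bases before the RefSeq start (build GRCm38.p6) are given 5′ to 3′ on the strand of the gene, with capitals at each CANNTG, the letters of the E-box that MyoD-family factors bind, and at each MEF2 site.
Pgam2, chr11:5803797-5804046, minus strand: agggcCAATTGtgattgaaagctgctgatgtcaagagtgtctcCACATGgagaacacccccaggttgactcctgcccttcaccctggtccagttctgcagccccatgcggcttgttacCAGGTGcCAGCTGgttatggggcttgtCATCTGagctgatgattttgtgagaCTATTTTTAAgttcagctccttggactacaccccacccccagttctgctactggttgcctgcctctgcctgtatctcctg
Eno3, chr11:70656926-70657175, plus strand: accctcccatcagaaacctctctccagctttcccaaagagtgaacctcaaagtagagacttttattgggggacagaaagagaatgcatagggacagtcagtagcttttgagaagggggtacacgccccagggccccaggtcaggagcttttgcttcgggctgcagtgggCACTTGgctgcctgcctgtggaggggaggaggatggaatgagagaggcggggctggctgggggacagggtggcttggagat
Pygm, chr19:6384158-6384407, plus strand: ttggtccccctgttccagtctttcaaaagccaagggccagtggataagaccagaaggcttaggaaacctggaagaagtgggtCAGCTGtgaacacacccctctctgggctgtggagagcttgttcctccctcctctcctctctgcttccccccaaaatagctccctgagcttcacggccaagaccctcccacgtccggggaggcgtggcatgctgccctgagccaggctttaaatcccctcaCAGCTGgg
Pgam1, chr19:41911621-41911870, plus strand: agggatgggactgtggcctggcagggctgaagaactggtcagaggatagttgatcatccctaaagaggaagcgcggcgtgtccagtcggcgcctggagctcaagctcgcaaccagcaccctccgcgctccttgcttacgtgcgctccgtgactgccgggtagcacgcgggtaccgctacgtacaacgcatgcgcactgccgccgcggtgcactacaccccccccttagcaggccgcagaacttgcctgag
The Pgam2 window held 5 CANNTG and 1 MEF2 site, the Eno3 window 1 CANNTG, the Pygm window 2 and the Pgam1 window 0. RefSeq starts were matched for 33 of the 34 genes, 46 starts in all, and Slc2a4 was the gene without one. CANNTG was present before 8 of 9 starts of muscle-type isoforms and 4 of 12 starts of the other isoforms. Several of the muscle-type starts belong to 1 gene, Pfkm. Over all 34 genes it was present before 30 of the 46 starts, or 65.2%, near the 66.2% of all 32851 starts. A MEF2 site was present before 1 of the 9 muscle-type starts, 0 of the 12 others and 2.92% of all starts. ACGTG, the core letters bound by hypoxia-inducible factors, was present before 3 of 9 and 3 of 12 starts, 18 of the 46 starts of all 34 genes and 16.6% of all starts, and a CArG box before 0 of the 46 and 1.47% of all starts. Each motif was searched on both strands, and CACGTG counts as both CANNTG and ACGTG. Starts of 1 gene can overlap, and a match of letters is a description of the sequence alone.

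Total counts per library were 7115959, 7553137, 6671671 and 5425095 in Sirt7 scKO replicates 1 to 4 and 5777563, 5601699 and 5713894 in Control replicates 1 to 3. Levels are given as CPM, counts relative to library size after TMM scaling, with the SD over 4 Sirt7 scKO and 3 Control libraries, and fold changes as log2 of Sirt7 scKO over Control. The targeted gene Sirt7 had 43.7 ± 8.39 CPM in Sirt7 scKO and 58.0 ± 12.2 CPM in Control muscle, with overlapping groups (adjusted p = 0.288 by edgeR). Markers of mature fibres (Actn3, 62.0 CPM in Sirt7 scKO and 185 CPM in Control), macrophages (Adgre1, 379 CPM in Sirt7 scKO and 411 CPM in Control) and fibro-adipogenic progenitors (Pdgfra, 139 CPM in Sirt7 scKO and 142 CPM in Control) were all present. Of 16 tested progenitor markers 13 were negative (median log2 fold change -0.09), with 4 lower and 0 higher at an unadjusted p under 0.05. By that measure 3 of 22 monocyte and macrophage markers were lower and 1 higher, and 2 of 11 endothelial markers lower and 0 higher. Over all tested genes 6.94% were lower and 6.69% higher. Among all marker genes listed the neutrophil genes Ly6g, Elane and Ngp had 0 counts in every library. Markers of neutrophils were higher at an unadjusted p under 0.05 for 4 of 5 tested (Mmp9, 81.3 CPM in Sirt7 scKO and 42.5 CPM in Control), and the list summed to 136 to 209 CPM in Sirt7 scKO and 134 to 147 CPM in Control. Those of red cells were higher by the same measure for 5 of 5 (Hba-a1, 66.5 ± 46.7 CPM in Sirt7 scKO and 28.4 ± 0.624 CPM in Control). Their sums were 163, 134, 492 and 112 CPM in Sirt7 scKO replicates 1 to 4, against 102 to 115 CPM in Control, with replicate 3 far above all others. None of these neutrophil and red cell genes passed an adjusted p of 0.05. Of 6 tested osteoblast markers 2 did, both higher without overlap. Ibsp, a bone matrix protein, had 11.7, 7.33, 13.2 and 4.16 CPM in Sirt7 scKO, against 0.347, 0.18 and 0 CPM in Control (adjusted p = 0.00999 by edgeR), and Alpl, a phosphatase, had 6.92 ± 1.12 CPM in Sirt7 scKO and 1.34 ± 0.715 CPM in Control (adjusted p = 0.0191 by edgeR). The whole osteoblast list summed to 5138 to 6736 CPM in Sirt7 scKO and 5362 to 6886 CPM in Control. It includes Col1a1, also listed for fibro-adipogenic progenitors, and Spp1, also listed for macrophages, so its sum is not a measure of bone cells. The part of these cells in the results below was not tested. In bulk muscle, fewer cells of a type and less RNA per cell cannot be told apart.

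None of the 34 genes passed the test. At an adjusted p of 0.05 edgeR called 0 of 34, against 0.131% of all tested genes, and DESeq2 called 0 of 34, against 0.964% of the 15464 genes to which it gave an adjusted p. At an unadjusted p under 0.05, 8 genes were lower in Sirt7 scKO muscle, which is 23.5% of the 34 against 6.94% of all tested genes, and 0 were higher, against 6.69%. These 8 were Slc2a4, Hk2, Pfkm, Aldoa, Tpi1, Pgam2, Eno3 and Gys1. The log2 fold change was negative for 28 of 34, or 82.4%, against 48.7% of all tested genes, and its median was -0.20 against 0.0066 over all tested genes. For 0 of 34 were all 4 Sirt7 scKO libraries below every Control library, against 5.71% of all tested genes, and for 0 of 34 were all 4 above, against 6.51%.

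The 4 most negative fold changes belonged to the muscle-type isoforms Slc2a4, Pgam2, Pygm and Pfkm, and the other isoforms stood near 0. All 7 muscle-type isoforms were negative, with a median of -0.78 and a range of -1.15 to -0.39, and 4 of them (Slc2a4, Pfkm, Pgam2 and Eno3) had an unadjusted p under 0.05. Of the 8 other isoforms, Hk1, Pfkl, Pfkp, Aldoc, Pgam1, Eno1, Pygb and Pygl, 4 were negative and 4 positive, with a median of -0.01, a range of -0.24 to 0.19 and 0 at an unadjusted p under 0.05. The remaining 19 genes, with no tissue class assigned here, had 17 negative values and a median of -0.20. They include Hk2 (-0.29) and Aldoa (-0.34), whose relatives Hk1 and Aldoc stand among the other isoforms. The classes were set with earlier results of these data known, so the split is a description. The summed level of the muscle-type isoforms was 482, 204, 234 and 248 CPM in Sirt7 scKO replicates 1 to 4, against 611, 489 and 332 CPM in Control replicates 1 to 3. That of the other isoforms was 605, 594, 533 and 605 CPM in Sirt7 scKO, against 543, 589.9 and 629.6 CPM in Control. The plot of fold changes by role shows this split within glycolysis and glycogen breakdown.

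**Figure D1:**
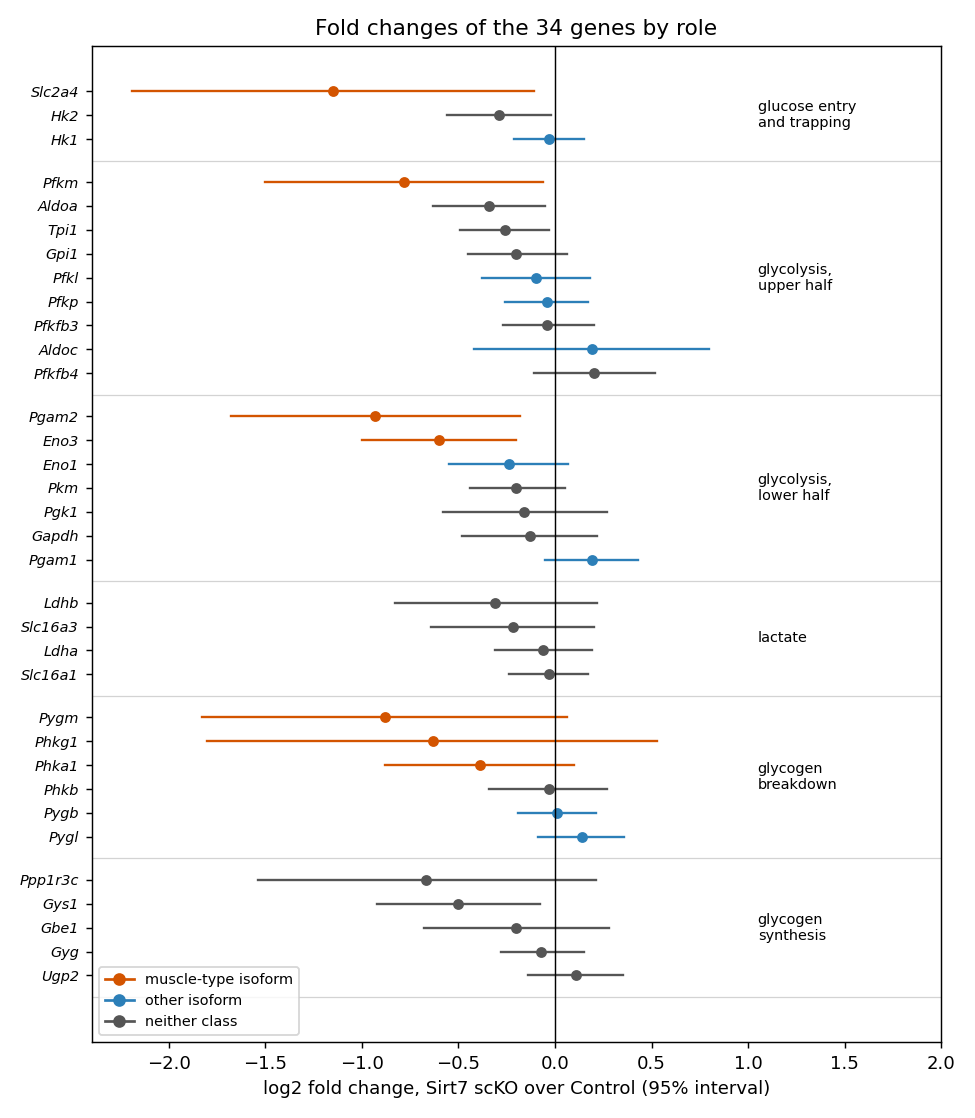
Log2 fold change of Sirt7 scKO over Control for each of the 34 genes (points) with a 95% interval derived from the edgeR test (lines). Genes are grouped from top to bottom by role and coloured by isoform class. The 7 muscle-type isoforms lie between -1.15 and -0.39 and the 8 other isoforms between -0.24 and 0.19.

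The libraries within each group were uneven for the muscle-type isoforms. In all 7, Sirt7 scKO replicate 1 was the highest Sirt7 scKO library and lay above the lowest Control library, and Control replicate 3 was the lowest Control library. In all 7, Sirt7 scKO replicates 2, 3 and 4 each lay below every Control library. Of all 34 genes, 11 had replicates 2 to 4 below every Control library, or 32.4% against 9.07% of all tested genes, and of the 8 other isoforms 0 did. Beyond the muscle-type isoforms these 11 were Hk2, Aldoa, Gys1 and Ppp1r3c. Replicate 1 was singled out here after its values were seen, so these counts are a description.

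Glucose enters fibres through Slc2a4 (GLUT4, the insulin-responsive transporter; ENSMUSG00000018566.14, chromosome 11, 69942539 to 69948188, minus strand), and hexokinases trap it as glucose 6-phosphate. Slc2a4 had 12.2, 1.96, 5.99 and 3.03 CPM in Sirt7 scKO replicates 1 to 4, against 19.8, 12.8 and 6.48 CPM in Control replicates 1 to 3. It had the largest difference of the 34 genes, a log2 fold change of -1.15 (SE 0.480, 95% interval -2.19 to -0.11, adjusted p = 0.320 by edgeR), and also wide groups, with a 6.24-fold spread between the highest and lowest Sirt7 scKO library and 3.06-fold among Control. Hk2, the regulated hexokinase of muscle, had 60.1, 40.7, 47.8 and 43.5 CPM in Sirt7 scKO, against 57.5, 58.7 and 60.4 CPM in Control. Here the Control libraries were tight, and only Sirt7 scKO replicate 1 reached them (log2 fold change -0.29, SE 0.125, adjusted p = 0.327 by edgeR). Hk1, the general hexokinase and the most abundant of the 3 per kilobase of exon (11.3 in Sirt7 scKO and 11.6 CPM per kb in Control), had 105, 96.4, 96.7 and 88.9 CPM in Sirt7 scKO, against 92.9, 105 and 99 CPM in Control. Its log2 fold change was -0.03 (SE 0.0848), with an interval of -0.21 to 0.15.

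In the upper part of glycolysis, Gpi1 converts glucose 6-phosphate to fructose 6-phosphate, phosphofructokinase commits it, and aldolase and Tpi1 yield triose phosphates. Of these 9 genes 7 had a negative fold change, with a median of -0.10. Pfkm, the muscle phosphofructokinase (ENSMUSG00000033065.13, chromosome 15, 98092589 to 98132451, plus strand), had 87.4, 24.1, 37.7 and 35.2 CPM in Sirt7 scKO, against 95, 89.6 and 53.4 CPM in Control (log2 fold change -0.78, SE 0.334, adjusted p = 0.329 by edgeR). Pfkl and Pfkp, the liver and platelet types, had 40.1 ± 6.55 and 51.1 ± 2.49 CPM in Sirt7 scKO, against 43.0 ± 2.71 and 52.7 ± 6.11 CPM in Control, with log2 fold changes of -0.10 and -0.04. The muscle subunit is set against the other subunits of the same enzyme in the ratios given below. Their test could not pass 0.05 with 4 and 3 libraries, so it leaves undecided whether the subunits differed.

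Aldoa, the aldolase of muscle and most other tissues and the most abundant gene per length of this group (86.9 CPM per kb in Sirt7 scKO and 110.1 in Control), had 309.9, 223, 213 and 266 CPM in Sirt7 scKO, against 360.5, 334 and 267 CPM in Control. Sirt7 scKO replicate 4 lay just under the lowest Control library and replicate 1 above it (log2 fold change -0.34, SE 0.133, adjusted p = 0.290 by edgeR). Tpi1 had 140.3, 130.4, 115 and 163 CPM in Sirt7 scKO, against 175, 160.1 and 157 CPM in Control, so only replicate 4 reached the Control range (log2 fold change -0.26, SE 0.106, adjusted p = 0.308 by edgeR). Gpi1 had 113 ± 19.8 CPM in Sirt7 scKO and 129 ± 6.93 CPM in Control (log2 fold change -0.20). Aldoc, the brain-type aldolase, was scarce, with 3.01 ± 0.538 CPM in Sirt7 scKO and 2.64 ± 0.294 CPM in Control. Pfkfb3 and Pfkfb4, which set the level of the phosphofructokinase activator fructose 2,6-bisphosphate, had 64.5 ± 7.13 and 46.6 ± 5.56 CPM in Sirt7 scKO and 66.3 ± 6.21 and 40.4 ± 8.30 CPM in Control. Pfkfb4 had the highest fold change of the 34 genes, 0.20 (SE 0.144, 95% interval -0.11 to 0.52).

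In the lower part, from Gapdh to pyruvate kinase, 6 of 7 genes were negative with a median of -0.20, and the muscle-type mutase and enolase had the largest differences. Pgam2 (ENSMUSG00000020475.3, chromosome 11, 5801640 to 5803733, minus strand), whose sequence is shown above, had 46.9, 13.2, 19.5 and 19.7 CPM in Sirt7 scKO, against 65.5, 47.1 and 30.1 CPM in Control. Sirt7 scKO replicate 1 lay at the level of the middle Control library and replicates 2 to 4 were below all 3 (log2 fold change -0.93, SE 0.347, 95% interval -1.68 to -0.18, adjusted p = 0.268 by edgeR). Pgam1 ran the other way, with 169 ± 16.6 CPM in Sirt7 scKO and 148 ± 23.6 CPM in Control (log2 fold change 0.19, SE 0.112). Eno3, the muscle enolase (ENSMUSG00000060600.15, chromosome 11, 70657202 to 70662513, plus strand), had 195, 133, 117 and 138 CPM in Sirt7 scKO, against 284, 220.4 and 160.3 CPM in Control. It had the smallest p of the 34 genes, with a log2 fold change of -0.60 (SE 0.184, 95% interval -1.0 to -0.20, adjusted p = 0.201 by edgeR). Eno1, the general enolase, had 121 ± 27.4 CPM in Sirt7 scKO and 143 ± 13.1 CPM in Control (log2 fold change -0.24, SE 0.143).

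Pkm, the pyruvate kinase of muscle and proliferating cells, had the highest level per length of the 34 gene counts as deposited (111 CPM per kb in Sirt7 scKO and 127 in Control, where Eno3 stood level). That order leaves out counts at processed copies, with which Gapdh stood at 631 CPM per kb in both groups and Pkm at 362 in Sirt7 scKO and 396 in Control. It had 626, 538, 443 and 611 CPM in Sirt7 scKO, against 607, 669 and 629 CPM in Control. Sirt7 scKO replicates 1 and 4 reached the Control range and replicates 2 and 3 did not (log2 fold change -0.20, SE 0.112, adjusted p = 0.469 by edgeR). Gapdh and Pgk1, the dehydrogenase and kinase that make the first ATP of the pathway, had 48.3 ± 11.5 and 54.8 ± 19.5 CPM in Sirt7 scKO and 52.7 ± 5.71 and 60.5 ± 5.99 CPM in Control. Their log2 fold changes were -0.13 (SE 0.162) and -0.16 (SE 0.197), and both counts are small against those of their processed copies, described below.

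Lactate is formed by lactate dehydrogenase and crosses the membrane through monocarboxylate transporters, and all 4 genes of this step had small negative fold changes (median log2 fold change -0.14, 0 at an unadjusted p under 0.05). Ldha, the subunit that favours lactate formation, had 275, 231, 199 and 289 CPM in Sirt7 scKO, against 249, 261 and 269 CPM in Control. The Sirt7 scKO libraries lay on both sides of the narrow Control range (log2 fold change -0.06, SE 0.116, 95% interval -0.31 to 0.19). Ldhb, the subunit of oxidative tissues, was far scarcer, with 4.66 ± 0.227 CPM in Sirt7 scKO and 5.75 ± 1.70 CPM in Control. Slc16a1 (MCT1) had 54.1 ± 4.6 CPM in Sirt7 scKO and 55.3 ± 0.415 CPM in Control, a log2 fold change of -0.03 with an interval of -0.24 to 0.17. Slc16a3 (MCT4, the lactate exporter of glycolytic cells) had 47.7, 47.2, 26.6 and 27.6 CPM in Sirt7 scKO, against 47.4, 40.1 and 44.1 CPM in Control, so the Sirt7 scKO libraries formed a higher and a lower pair.

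Glycogen is opened by phosphorylase, which phosphorylase kinase switches on. Pygm, the muscle phosphorylase (ENSMUSG00000032648.14, chromosome 19, 6384399 to 6398459, plus strand), had 98.5, 16.6, 33.4 and 27.4 CPM in Sirt7 scKO, against 106, 84.4 and 54.1 CPM in Control. Its highest and lowest Sirt7 scKO libraries differed 5.93-fold, and the log2 fold change of -0.88 (SE 0.436, 95% interval -1.83 to 0.06, adjusted p = 0.397 by edgeR) missed even the unadjusted threshold. The brain and liver phosphorylases Pygb and Pygl had 65.6 ± 3.40 and 38.1 ± 3.46 CPM in Sirt7 scKO and 65.1 ± 5.51 and 34.6 ± 1.10 CPM in Control, with log2 fold changes of 0.01 (95% interval -0.19 to 0.21) and 0.14 (-0.09 to 0.36). Per kilobase of exon, Pygm had 30.6, 5.16, 10.4 and 8.52 CPM in Sirt7 scKO, against 33.0, 26.2 and 16.8 CPM in Control, while Pygb ran from 12.8 to 14.4 CPM in Sirt7 scKO and from 12.5 to 14.8 CPM in Control. Pygm was thus above Pygb in Sirt7 scKO replicate 1 and in all 3 Control libraries, and below it in Sirt7 scKO replicates 2 to 4. The muscle subunits of phosphorylase kinase, the regulatory Phka1 and the catalytic Phkg1, had 20.7 ± 7.58 and 4.51 ± 4.49 CPM in Sirt7 scKO and 27.1 ± 4.01 and 7.08 ± 2.75 CPM in Control (log2 fold changes -0.39 and -0.63, both with an interval that includes 0). Phkg1 ran from 1.18 to 11.1 CPM within Sirt7 scKO, a 9.44-fold spread, the widest of the 34 genes. Phkb, the shared beta subunit, had 25.4 ± 4.05 CPM in Sirt7 scKO and 25.9 ± 2.90 CPM in Control (log2 fold change -0.03).

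Glycogen is built from UDP-glucose, which Ugp2 makes, on the primer glycogenin (Gyg), by glycogen synthase (Gys1) and the branching enzyme (Gbe1). Gys1, the synthase of muscle and most other tissues, had 42.2, 35.6, 31.6 and 25.5 CPM in Sirt7 scKO, against 65.5, 39.2 and 38.9 CPM in Control (log2 fold change -0.50, SE 0.194, adjusted p = 0.289 by edgeR). Control replicate 1 was far above the other 2, and without it the log2 fold change was -0.21. Gyg, the most abundant of the 5 per length (40.2 CPM per kb in Sirt7 scKO and 42.0 in Control), had 101, 78.2, 96.3 and 101 CPM in Sirt7 scKO, against 104, 92.7 and 99 CPM in Control, and the groups overlapped widely (log2 fold change -0.07, 95% interval -0.28 to 0.15). Ugp2 had 88.7 ± 11.5 CPM in Sirt7 scKO and 82.2 ± 8.94 CPM in Control, and Gbe1 14.7 ± 2.66 CPM in Sirt7 scKO and 16.9 ± 6.27 CPM in Control (log2 fold changes 0.11 and -0.20). Ppp1r3c, which targets a phosphatase to glycogen, had 16.5, 2.35, 7.93 and 7.95 CPM in Sirt7 scKO, against 15.5, 14.4 and 11.4 CPM in Control. Its Sirt7 scKO replicate 1 was above every Control library and the other replicates below all of them (log2 fold change -0.67, SE 0.403, adjusted p = 0.498 by edgeR).

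**Figure D2:**
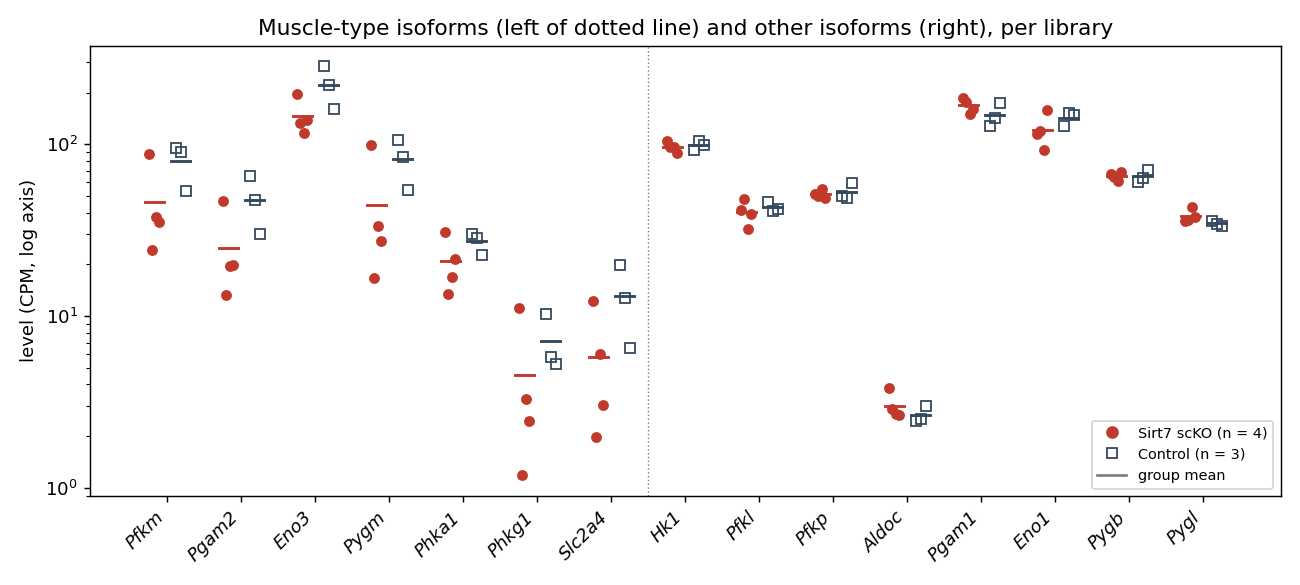
Level of the 7 muscle-type isoforms (left of the dotted line) and the 8 other isoforms (right) in CPM on a log axis, with filled circles for the 4 Sirt7 scKO libraries, open squares for the 3 Control libraries and bars for the group means. In each muscle-type isoform 1 Sirt7 scKO library sits within or just above the Control range and the other 3 below it, while the groups of the other isoforms overlap.

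The balance between isoforms of the same step can be read within a library, where the scaling of libraries cancels. The Pgam2 to Pgam1 ratio was 0.250, 0.0751, 0.130 and 0.123 in Sirt7 scKO replicates 1 to 4, against 0.513, 0.331 and 0.174 in Control replicates 1 to 3. The mean log2 ratio differed by -1.23 (Sirt7 scKO minus Control, two-sided exact permutation p = 0.114, 0.229 after Benjamini-Hochberg adjustment over 8 ratios), and the groups overlapped through Sirt7 scKO replicate 1. The Pygm to Pygl ratio was 2.77, 0.459, 0.775 and 0.733 in Sirt7 scKO, against 2.96, 2.46 and 1.61 in Control. In all 3 Control libraries the muscle phosphorylase had more counts than Pygl, and in Sirt7 scKO only in replicate 1. That order is one of raw counts and depends in part on length, since Pygl has 6895 exon bases and Pygm 3218. Per kilobase of exon, Pygm had 30.6, 5.16, 10.4 and 8.52 CPM in Sirt7 scKO replicates 1 to 4, where Pygl had a mean of 5.52 CPM. In Control it had 33.0, 26.2 and 16.8 CPM, where Pygl had a mean of 5.02 CPM. By length, Pygm was thus below the Pygl mean of its group only in Sirt7 scKO replicate 2. The mean log2 ratio of Pygm to Pygl differed by -1.30 (exact p = 0.171, adjusted 0.229). The other differences were -1.18 for Pygm to Pygb, -0.87 for Pfkm to Pfkp, -0.80 for Pfkm to Pfkl, -0.33 for Eno3 to Eno1, -0.28 for Hk2 to Hk1 and -0.18 for Ldhb to Ldha. Their exact p-values lay between 0.114 and 0.571, and the groups overlapped in all 8 ratios. Of the 35 splits of 7 libraries 1 makes up 0.0286, and the test doubles the smaller tail. No ratio could therefore fall under 0.05, so these p-values do not decide whether the isoform balance differed. The sizes depended on single libraries. Leaving out 1 at a time gave -1.64 to -0.86 for Pgam2 to Pgam1, -1.83 to -0.96 for Pygm to Pygl, -1.66 to -0.83 for Pygm to Pygb, -1.23 to -0.63 for Pfkm to Pfkp, -1.14 to -0.45 for Pfkm to Pfkl and -0.35 to -0.20 for Hk2 to Hk1. The difference for Eno3 to Eno1 was -0.05 without Control replicate 1, -0.18 without Sirt7 scKO replicate 4 and -0.57 without Control replicate 3, and that for Pfkm to Pfkl was -0.45 without Sirt7 scKO replicate 2. That for Ldhb to Ldha ran from -0.47 to 0.02.

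**Figure D3:**
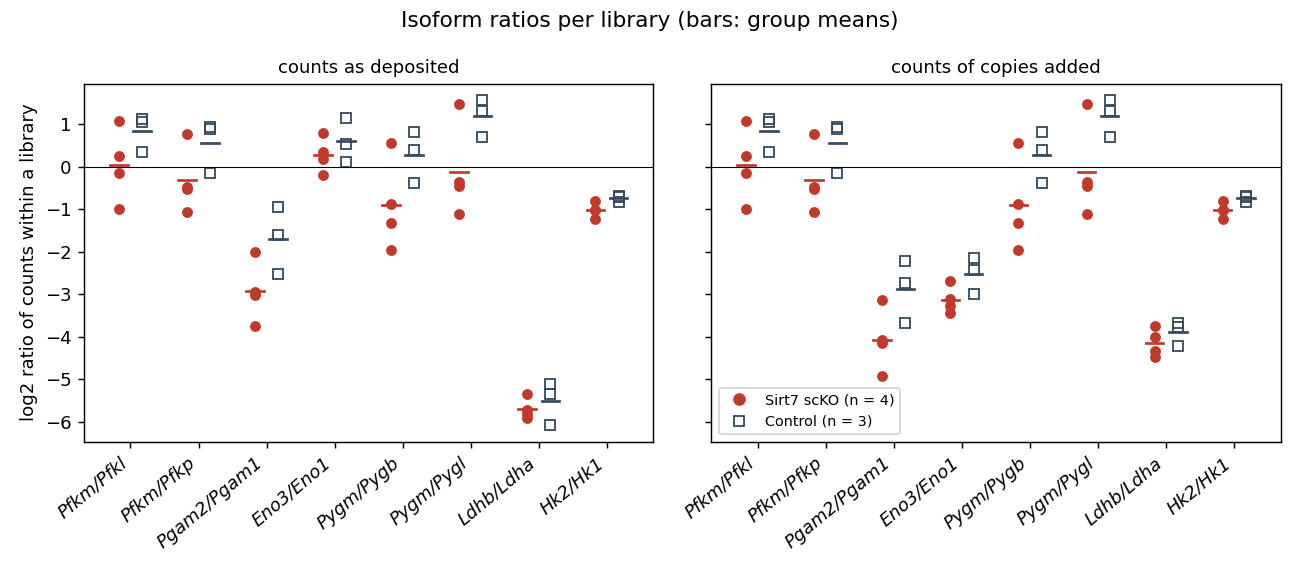
Log2 ratio of the counts of paired isoforms within each library, as deposited (left panel) and with the counts of processed copies added to each gene (right panel), with filled circles for Sirt7 scKO, open squares for Control and bars for group means. The groups overlap in all 8 pairs, and adding copies moves the Pgam2 to Pgam1, Eno3 to Eno1 and Ldhb to Ldha ratios of both groups together.

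The muscle-type isoforms varied across libraries with the structural genes of the fibre. Their mean centred log2 CPM was 0.71, -1.19, -0.47 and -0.62 in Sirt7 scKO replicates 1 to 4 and 0.97, 0.57 and 0.02 in Control replicates 1 to 3. The 5 tested genes with the most similar profile were Atp2a1, the calcium pump of fast fibres (Pearson r = 0.996), Myom1 and Tcap of the sarcomere (0.996 each), Myot (0.994) and Acta1, skeletal actin (0.993). These correlations are over 7 libraries of 2 groups and are a description of likeness. Of 28 tested markers of mature fibres, all 28 had a negative fold change, with a median of -1.03, and 19 had an unadjusted p under 0.05, none past an adjusted p of 0.05 (Actn3, log2 fold change -1.57, adjusted p = 0.0519 by edgeR). Their summed level was 1105 to 5111 CPM in Sirt7 scKO and 3059 to 7865 CPM in Control. In 24 of these 28, Sirt7 scKO replicates 2 to 4 were below every Control library, and in 25 replicate 1 was the highest Sirt7 scKO library. None of the listed fibre markers was at 0 in every library.

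Markers of embryonic and neonatal fibres, the first form of new fibres, gave another order of libraries. Of 14 tested, 13 were negative, with a median of -0.85, and 9 had an unadjusted p under 0.05 (Myh3, embryonic myosin, 56.7 ± 11.9 CPM in Sirt7 scKO and 131 ± 74.1 CPM in Control, adjusted p = 0.124 by edgeR). Their sum was 563 to 632 CPM in Sirt7 scKO and 614 to 1317 CPM in Control. Their median centred log2 level was -0.38 in Sirt7 scKO replicate 1, where that of the muscle-type isoforms was 0.70 and that of the mature fibre markers 0.65. Of the genes of myogenic commitment, 11 of 13 were negative (median -0.30), and Pax7 stood at 12.4 CPM in Sirt7 scKO and 11.5 CPM in Control. The part of fibre content in the values of the glycolytic genes was not tested.

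**Figure D4:**
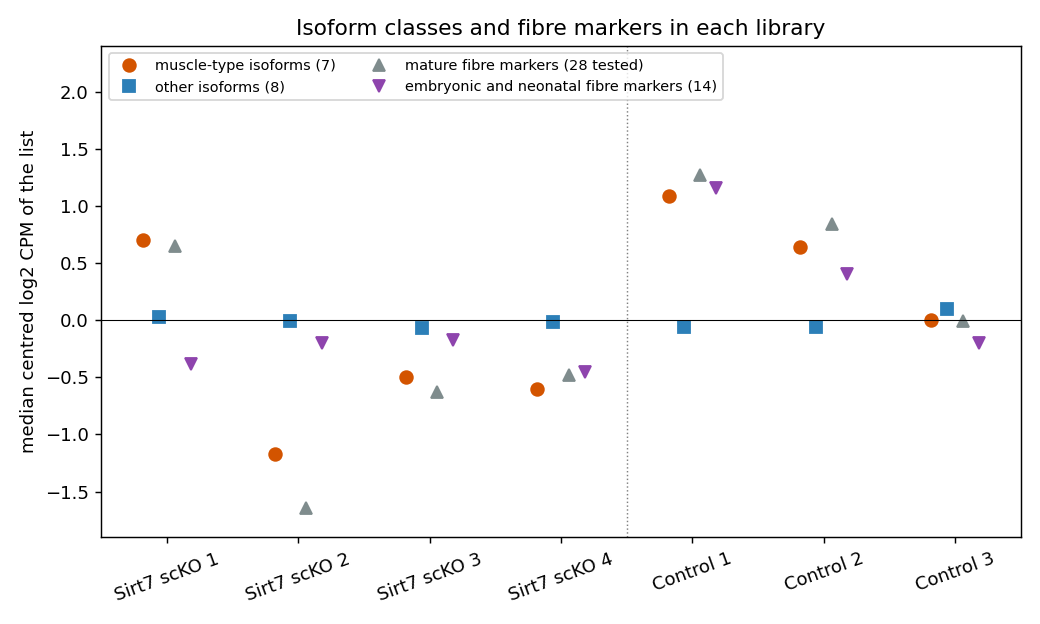
Median log2 CPM of 4 gene lists in each library, each gene centred on its mean over the 7 libraries, with Sirt7 scKO libraries left of the dotted line and Control libraries right of it. The muscle-type isoforms (circles) and mature fibre markers (upward triangles) are both highest in Control replicate 1 and lowest in Sirt7 scKO replicate 2, the 8 other isoforms (squares) stay near 0, and the embryonic and neonatal markers (downward triangles) part from the first pair in Sirt7 scKO replicates 1 and 2.

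Processed copies of 9 of the 34 genes were present in the table and held most of the counts of 6 of them. Aldoa, Eno1, Gapdh, Ldha, Ldhb, Pgam1, Pgk1, Pkm and Tpi1 had 317 copies in the count table, processed pseudogenes and retrogenes that match the mRNA over at least 80% of their length, and how reads that align to several of them were counted is not given in the sources used here. Gapdh alone had 274 copies, 108 of them with counts. Of all counts at Gapdh and its copies, 97.6 to 98.6% lay at the copies, so that Gapdh itself had 48.3 CPM in Sirt7 scKO and 52.7 CPM in Control while its copies held 2559 CPM in Sirt7 scKO and 2557 CPM in Control. The share at copies was 86.8 to 91.9% for Eno1, 85.5 to 93.2% for Pgk1, 65.0 to 71.8% for Pkm, 60.9 to 75.0% for Ldhb, 52.3 to 58.3% for Pgam1, 32.6 to 40.3% for Aldoa and 34 to 38% for Tpi1. For Ldha it was 0.555 to 1.41%. Sirt7 scKO replicate 4 had the lowest share of any library for Gapdh, Eno1, Pgk1, Pkm, Pgam1 and Aldoa, and the lowest of Sirt7 scKO for Tpi1. Its levels of these genes as deposited carry that limit. Copies at least 98% identical to the mRNA held 96.3 to 97.5% at Gapdh and most of the counts at Eno1, Pgk1, Pkm, Ldhb and Pgam1 too. Aldoa, Ldha and Tpi1 had none that close, their best copies reaching 91.8%, 92.9% and 97.7% identity. Of single copies, Gm6560 (98.4% identical to Pkm) had 1251 CPM in Sirt7 scKO and 1341 CPM in Control, and Gm4735 (99.6% identical to Eno1) 702 CPM in Sirt7 scKO and 726 CPM in Control. The Pgam1 copy printed above had 208 CPM in Sirt7 scKO and 187 CPM in Control, more than Pgam1 itself.

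**Figure D5:**
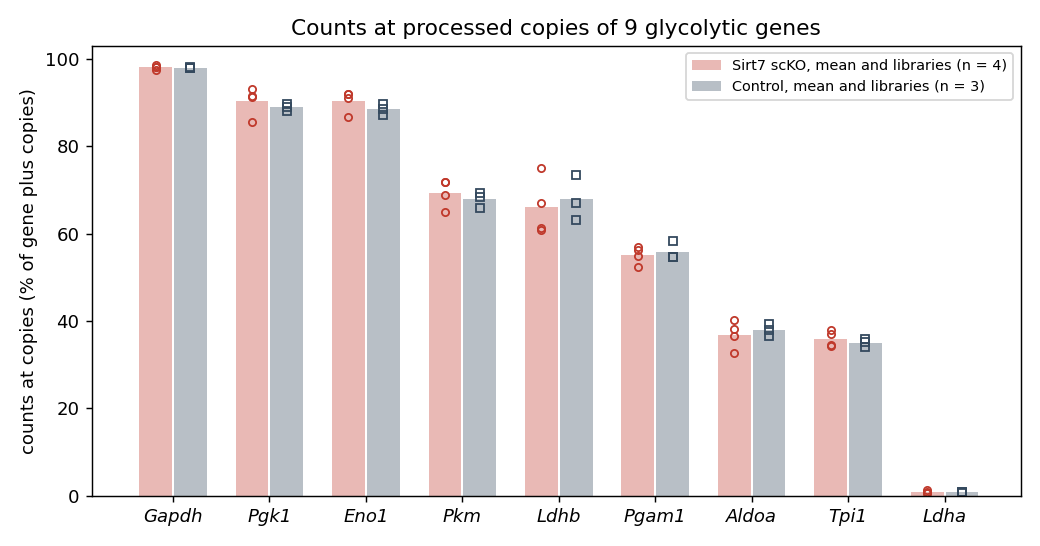
Share of counts at processed copies, in percent of the counts at a gene and its copies together, for the 9 genes that have copies, with bars for group means and symbols for the 4 Sirt7 scKO and 3 Control libraries. The share runs from 97.6 to 98.6% at Gapdh down to 0.555 to 1.41% at Ldha and the groups overlap in all 9.

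With the copies added to the genes, 0 of the 34 passed the threshold. In Sirt7 scKO the level with copies was 54.0 times that as deposited for Gapdh, 10.5 times for Eno1 and 1.01 times for Ldha. The 34 genes took 0.324, 0.263, 0.242 and 0.289% of all counts in Sirt7 scKO replicates 1 to 4 and 0.338, 0.326 and 0.306% in Control replicates 1 to 3, and with their copies 0.783 to 0.953% in Sirt7 scKO and 0.892 to 0.954% in Control. With copies added, the log2 fold change was -0.01 (SE 0.0882) for Gapdh, 0.03 (SE 0.0942) for Eno1, 0.05 (SE 0.0858) for Pgk1 and -0.14 (SE 0.0950) for Pkm, so that Eno1 and Pgk1 changed sign while staying near 0. Aldoa had -0.37 (SE 0.122, adjusted p = 0.227 by edgeR) and Tpi1 -0.24 (SE 0.104, adjusted p = 0.327 by edgeR). Of the 43 copies that passed the filter as deposited, edgeR called 1, against 22 of all 16764 tested genes. It was the Aldoa copy Gm8659 (91.3% identical), with 30.6 CPM in Sirt7 scKO and 60.0 CPM in Control (log2 fold change -0.97, adjusted p = 0.0155 by edgeR). The other tested Aldoa copies, Gm5276 and Gm7556, had log2 fold changes of -0.38 and 0.04 and were not called. The balance between isoforms depended on the copies. The Eno3 to Eno1 ratio ran from 0.875 to 2.23 over the 7 libraries as deposited and from 0.0915 to 0.228 with copies added, where its difference was -0.62 (exact p = 0.114). None of the 7 muscle-type isoforms had a copy in the table.

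Some of the genes also share exons with a neighbour, and the library kit named in the labels does not mark strand, so reads of both cannot be told apart there. The largest overlaps with a gene on the opposite strand were Gpi1 with the non-coding Gm26762 (11.5% of its exon bases; 8.14 CPM in Sirt7 scKO and 8.64 CPM in Control) and Phkg1 with Sumf2 (9.7%; 17.6 CPM in Sirt7 scKO and 20 CPM in Control). Sumf2 had more counts than Phkg1, which makes the low Phkg1 values uncertain. Gys1 shared 6.5% with Ruvbl2 and Pfkp 5.6% with Pitrm1. On the same strand, Pkm shared 15.3% with Gm49759, which has no level here. Pfkm shared 10.2% with Gm26513 (0.723 CPM in Sirt7 scKO and 0.527 CPM in Control).

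The calls themselves depended on 1 library and on the filter. Without Sirt7 scKO replicate 1, edgeR called 4 of the 34 genes, 11.8% against 1.11% of all tested genes, all of them muscle-type and lower in Sirt7 scKO: Pfkm at -1.31 (adjusted p = 0.0142), Pygm at -1.67 (0.0126), Pgam2 at -1.46 (0.0177) and Eno3 at -0.78 (0.0377). Leaving out any other single library gave 0 calls among the 34, and some of these made the differences smaller. Without Control replicate 1, Pgam2 was at -0.64, Eno3 at -0.39, Slc2a4 at -0.71, Pygm at -0.65 and Phkg1 at -0.27. Without Sirt7 scKO replicate 2, Pygm was at -0.60, Pfkm at -0.56 and Phkg1 at -0.29. With no filter on low counts, edgeR called 6 of the 34 (Slc2a4, Pfkm, Pgam2, Eno3, Pygm and Gys1), 17.6% against 2.06% of 28443 genes, all lower in Sirt7 scKO. The fold changes hardly moved there, with Eno3 at -0.59 and Pgam2 at -0.92. A filter at a mean of 1 CPM instead gave 0 calls among the 34 and 31 among 17740 genes.

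Other genes of the same metabolism, 84 tested of 101 listed, had a median fold change near 0. Of the 84, 50 were negative and 34 positive, with a median of -0.03, 0 past an adjusted p of 0.05 by edgeR, and 7 lower and 6 higher at an unadjusted p under 0.05. The pentose phosphate pathway, which diverts glucose 6-phosphate to NADPH and ribose, had 7 of 9 positive values and a median of 0.17. Its entry enzyme G6pdx had 71.4 ± 2.93 CPM in Sirt7 scKO and 58.4 ± 8.18 CPM in Control, without overlap (log2 fold change 0.29, SE 0.102, adjusted p = 0.253 by edgeR), and Pgd and Rpe had log2 fold changes of 0.17 and 0.25. Of the other glycogen genes 15 of 21 were negative (median -0.15), among them the lysosomal glucosidase Gaa, with 110.1 ± 4.43 CPM in Sirt7 scKO and 128 ± 3.57 CPM in Control and no overlap (-0.21, SE 0.0749, adjusted p = 0.253 by edgeR). Pgm5, a relative of phosphoglucomutase found at muscle attachment sites, had -0.55 and Pgm3, of hexosamine synthesis, 0.38.

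Among transporters of glucose, lactate and pyruvate 5 of 11 were negative (median 0.00). Emb, a chaperone of monocarboxylate transporters, had 115 ± 13.1 CPM in Sirt7 scKO and 93.2 ± 1.87 CPM in Control (log2 fold change 0.30, adjusted p = 0.214 by edgeR), Slc2a8 had -0.30 and Slc16a7 (MCT2) 0.29. Of 10 other glycolytic genes and regulators 8 were negative (median -0.16). Those with the smallest p were Hk3 (-0.18), Ldhd (-0.56) and Adpgk (0.15), none at an unadjusted p under 0.05. Pyruvate dehydrogenase and its kinases had 7 of 12 negative (median -0.02; Pdhx -0.32, Pdk2 -0.50, Pdk4 0.37), and gluconeogenesis and glycerol phosphate 6 of 6 (median -0.08; Gpd1l -0.20, Gpd1 -0.45, Pck2 -0.08). Of 15 glucose-responsive and hypoxia factors 7 were negative (median 0.01). There the carbohydrate-response factor Mlxipl was low in both groups, with 1.59 ± 1.34 CPM in Sirt7 scKO and 4.04 ± 1.47 CPM in Control (-1.30, SE 0.483, adjusted p = 0.269 by edgeR), while Myc had 0.29 and Egln3 -0.29.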

How the data were processed

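Per the labels, total RNA of whole TA muscle was extracted with a column kit, made into libraries with a NEBNext Ultra kit and sequenced on a NovaSeq instrument. Builds GRCm38 and mm10 and the tools featureCounts, Bowtie2 and fastp are listed in the submitters' processing notes. Versions, the annotation release and the handling of strand and of multiply aligned reads are not given there. The deposited values are raw counts per gene and library, checked to be whole numbers.

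Identifiers were matched to GENCODE mouse release 21 (GRCm38), and exon lengths, overlaps and copies were taken from it. Copies were found with BLAST 2.17.0. Coding copies needed 90% identity and at most 2 exons. All 7 libraries were grouped by their labels. The 4 Sirt7 scKO and 3 Control libraries are labelled as biological replicates. Pairs of libraries of 1 group differed by more than counting noise, with a chi-square per gene of 3.24 to 8.44.

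Genes were filtered with filterByExpr (minimum count 10, minimum total 15), scaled by TMM and fitted in edgeR (version 4.0.16, R 4.3.3) with its quasi-likelihood test. Adjusted p-values are by Benjamini-Hochberg over all 16764 genes, with a threshold of 0.05. The common dispersion was 0.0142. CPM per kilobase divides by the exon length. Ratios had 0.5 added to each count. Counts were also simulated, with every gene drawn at that common dispersion and 16562 genes in the fit. There 51.0% of 49 genes changed 1.5-fold and 93.8% of 48 changed 2-fold were recovered, with 14 false calls. These shares do not apply to genes with a wider spread, such as Slc2a4 (log2 fold change -1.15, SE 0.480) and Pgam2 (-0.93, SE 0.347). Alternatives were other scalings (total count, RLE, upper quartile), other filters (none, or a mean of 1 CPM), other tests (DESeq2 1.42.0, voom of limma 3.58.1, robust edgeR), the replicate block, added copies and leaving out each library. Figures were drawn with matplotlib 3.10.9.

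The genes and lists were chosen with earlier results of these data known. All 34 are named with their level. Values per library are given for those with an unadjusted p under 0.05 and for the most abundant per length in each role, and for Slc16a3 and Ppp1r3c, chosen after their values were seen. Up to 3 genes with the smallest p are named from each pathway list, and the first or most significant from the marker lists used.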

Additional observations from a re-analysis of the deposited data

Results flagged for a closer look

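In 3 of 34 genes tested within the 4 Sirt7 scKO libraries, 1 library stood apart from the other 3 beyond Dixon's 95% limit for the gap to the nearest library over the range. Chance alone flags about 1 group in 20. Pfkfb4, which tunes phosphofructokinase, was lowest in Sirt7 scKO replicate 2 at 38.3 CPM, with the others at 49.2, 48.8 and 50.1 CPM (gap over range 0.887). The Control libraries had 30.9, 46.3 and 44.0 CPM. Pgk1 was highest in Sirt7 scKO replicate 4 at 83.8 CPM, with the others at 48.0, 42.7 and 44.8 CPM (0.871), against 60.8, 54.4 and 66.4 CPM in Control. The Pgk1 copies held 85.5% of the counts in that library and 91.2 to 93.2% in the other Sirt7 scKO libraries. Replicate 4 also had the lowest share at copies of any library for Gapdh (97.6%), Eno1 (86.8%), Pkm (65.0%), Pgam1 (52.3%) and Aldoa (32.6%). It did not for Ldha, Ldhb or Tpi1. The part of this share in the Pgk1 value was not tested. Ldhb was lowest in Sirt7 scKO replicate 2 at 4.32 CPM, with the others at 4.78, 4.79 and 4.73 CPM (0.872), while the Control libraries ran from 3.85 to 7.12 CPM. These values rest on 34, 33, 32 and 25 counts in Sirt7 scKO replicates 1 to 4, and the counting interval of replicate 2 alone (exact Poisson, 95%) ran from 2.97 to 6.06 CPM, wider than the range of the group.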

How the results depend on the processing

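Of 578 fold changes, 34 genes under 17 alternatives, 541 kept their direction and their side of the threshold, 16 newly passed it and 21 reversed, in 12 genes. The median log2 fold change of the 34 genes stayed between -0.10 and -0.26. The number of the 34 past the threshold was 6 with no filter, 6 with the replicate block and 0 to 4 when 1 library was left out. The number of all genes past it, 22 as reported, was 35 with total-count scaling, 585 with no filter, 149 with DESeq2, 56 with robust dispersion and 537 with the replicate block. It ran from 0 to 330 when 1 library was left out, with 0 without Control replicate 2 and 330 without Sirt7 scKO replicate 4; the cause was not tested.

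The replicate numbers mark no shared animal or day in the labels. Deviations of same-numbered libraries correlated at 0.123, -0.0742 and 0.0956, and Sirt7 scKO replicate 2 correlated best with another number, Control replicate 3 (0.156). The block called Aldoa, Tpi1, Pgk1, Pgam2, Eno1 and Eno3, dropped Sirt7 scKO replicate 4, which shares its number with no Control library, from the estimate, and reversed Hk1 (0.01), Pfkfb3 (0.04) and Pygb (-0.01). Adding copies reversed Pgk1 (0.05) and Eno1 (0.03). Leaving out 1 library gave ranges across 0 for Gbe1 (-0.39 to 0.13), Pygb (-0.05 to 0.08), Phkb (-0.13 to 0.05), Hk1 (-0.08 to 0.01), Pfkp (-0.10 to 0.06), Pfkfb3 (-0.09 to 0.04), Slc16a1 (-0.09 to 0.00323), Gyg (-0.11 to 0.02), Gapdh (-0.26 to 0.01) and Ldha (-0.14 to 0.03), and for the Ldhb to Ldha ratio -0.47 to 0.02. The 7 muscle-type isoforms had a negative sign under all 17 alternatives. With 4 and 3 libraries, fold changes near 1.5 are often missed. Larger differences did not pass either in genes whose libraries spread widely, such as Slc2a4 (log2 fold change -1.15).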
